A study of Sus scrofa with 8 samples.

Results

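Cytosolic ribosomal protein genes were described in the right ventricle of pigs with and without a band around the pulmonary artery. A gene was taken in when its gene name in the authors' deposited comparison, or else its one-to-one human name, was RPL or RPS followed by a digit, or RPLP0, RPLP1, RPLP2 or RPSA, with the RPS6K kinases left out. It also needed at least 10 counts in at least 4 of the 8 libraries. By this rule 56 of the 31908 gene models of the count table were members, and all 56 were tested. The names of 62 models fitted, and the other 6 (RPL10L, RPL12, RPL19, RPL21, a further RPL22 model and RPS27AP5) were below the count minimum, 4 of them with 0 counts in every library. The members fall into 26 genes of the large subunit, 23 of the small subunit, 5 paralogs (RPL3L, RPL7L1, RPL26L1, RPL36AL and RPS27L) and 2 models with read-through names, RPL17-C18orf32 and RPL36A-HNRNPH2.

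The tissue was right ventricular free wall, frozen, from Yorkshire Cross pigs, sequenced in bulk from total RNA with 1 library per animal. The 4 banded animals were castrated males of 4.5 ± 0.6 weeks and 6.4 ± 1.3 kg at surgery, in which a tape around the main pulmonary artery was tightened until peak right ventricular pressure reached roughly 30 to 40 mmHg. The 4 controls had no treatment, were of like age and weight and were housed for 8 weeks. The labels used here give neither the sex of the controls nor the time from banding to tissue collection, so differences in either cannot be told apart from banding.

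The cytosolic ribosome is built from ribosomal RNA and a fixed set of proteins, made in about equal amounts and assembled in the nucleolus. Most messenger RNAs for these proteins begin with a 5′ terminal oligopyrimidine (TOP) tract, through which mTORC1 and LARP1 control their translation more than their amount. Growth of heart muscle under load is known for a rise in protein synthesis, and a few ribosomal protein genes have paralogs with tissue-restricted expression, of which RPL3L, found in heart and skeletal muscle, is the best known.

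The libraries held 31033679 to 34183338 counts, of which 30.5 to 43.9% fell on the mitochondrial genome. Levels are given as CPM, counts scaled to a common library total with TMM factors, and levels of different genes are compared as CPM per kilobase of exon. Cardiomyocyte markers were abundant in every library, with a summed level of 24697 to 33185 CPM in controls and 31882 to 42231 CPM in banded animals over 8 genes. The highest of the 8 was MYL2, which averaged 13364 CPM and was the 1 of the 8 that passed the test, higher in banded animals (log2 fold change 0.91, adjusted p = 0.0113, edgeR). The log2 fold change was also positive for ACTN2 (0.60), TCAP (0.48) and TNNC1 (0.43), and negative for TNNI3 (-1.25), RYR2 (-0.74), MYBPC3 (-0.33) and MYL3 (-0.19). TNNI3, a defining marker, averaged only 10.9 CPM on its gene model. Skeletal muscle markers summed to at most 1.49 CPM over TNNT3, TNNI2 and ACTN3, the 3 of 6 listed genes that were found. MYH1, MYH2 and MYH4 were not found by name. Macrophage markers summed to 438 to 696 CPM in controls and 684 to 1305 CPM in banded animals, and of 7 genes 0 passed edgeR's adjusted test, 5 had an unadjusted p under 0.05, and DESeq2 and limma-voom each called 4 higher. Erythroid markers reached 1786 CPM in banded animal 4, and adipocyte markers 292 CPM in banded animal 1. Smooth muscle and pericyte markers summed to 1886 CPM in banded animal 3, of which CNN1 alone made up 1348 CPM. In the other animals that sum was 607 to 977 CPM.

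Messenger RNA for the ribosomal proteins was abundant in both groups. Per kilobase of exon, the median member stood at 203 CPM in controls, against 2.66 CPM for the median of all 13697 tested genes, and 50 of the 56 members were among the 500 highest tested genes. On the same scale, high members in controls were RPL23 at 1392, RPLP2, a protein of the ribosomal stalk, at 1014, and RPL34 at 913 CPM. Summed over the members, they took 2.90% ± 0.23 (SD, n = 4) of all counts in controls and 2.82% ± 0.24 (SD, n = 4) in banded animals. Outside the mitochondrial genome the shares were 4.73% ± 0.66 and 4.43% ± 0.18 (SD, n = 4 each), so the difference between groups was within the spread between animals on both scales. In bulk tissue, fewer cells of a type and less RNA per cell cannot be told apart.

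Of the 56 members, 1 rose in banded animals and 0 fell at an adjusted p under 0.05 (edgeR's quasi-likelihood test, Benjamini-Hochberg over all tested genes). Among all tested genes 6.97% passed, 3.47% higher and 3.5% lower. At an unadjusted p under 0.05, 4 members passed (RPS27L, RPL3L, RPL3 and RPL7L1), and 23.8% of all tested genes did. DESeq2 called 1 member higher and 1 lower, where 10.3% of the genes it tested passed. In the authors' deposited table, 2 members passed an adjusted p of 0.05, RPS27L higher and RPL3L lower in banded animals, where 10.6% of the genes with an adjusted p did. RPS27L was the member called in all 3, and both genes that any of them called are paralogs.

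The log2 fold changes, banded over control, lay close together. Their median was 0.08 with quartiles of -0.01 and 0.16, while all tested genes had a median of 0.02 with quartiles of -0.25 and 0.28. The value was positive in 38 members and negative in 18, and in 7062 and 6635 of the 13697 tested genes. Of all 13697 tested genes, 322 had at least 263 CPM in controls, the lower quartile of the subunit genes (chosen by CPM without length). The quartiles of their log2 fold changes were -0.19 and 0.20. The log2 fold change was under 0.3 in size in 91.1% of the members, 54.7% of all tested genes and 67.4% of these 322. The 95% interval lay wholly within a 1.5-fold change in either direction for 44 of 56 members (78.6%). It did so for 31.8% of all tested genes and for 50.6% of the 322. That count was added after the values had been seen, and it depends on the width of the interval as well as on the size of the difference.

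**Figure D1:**
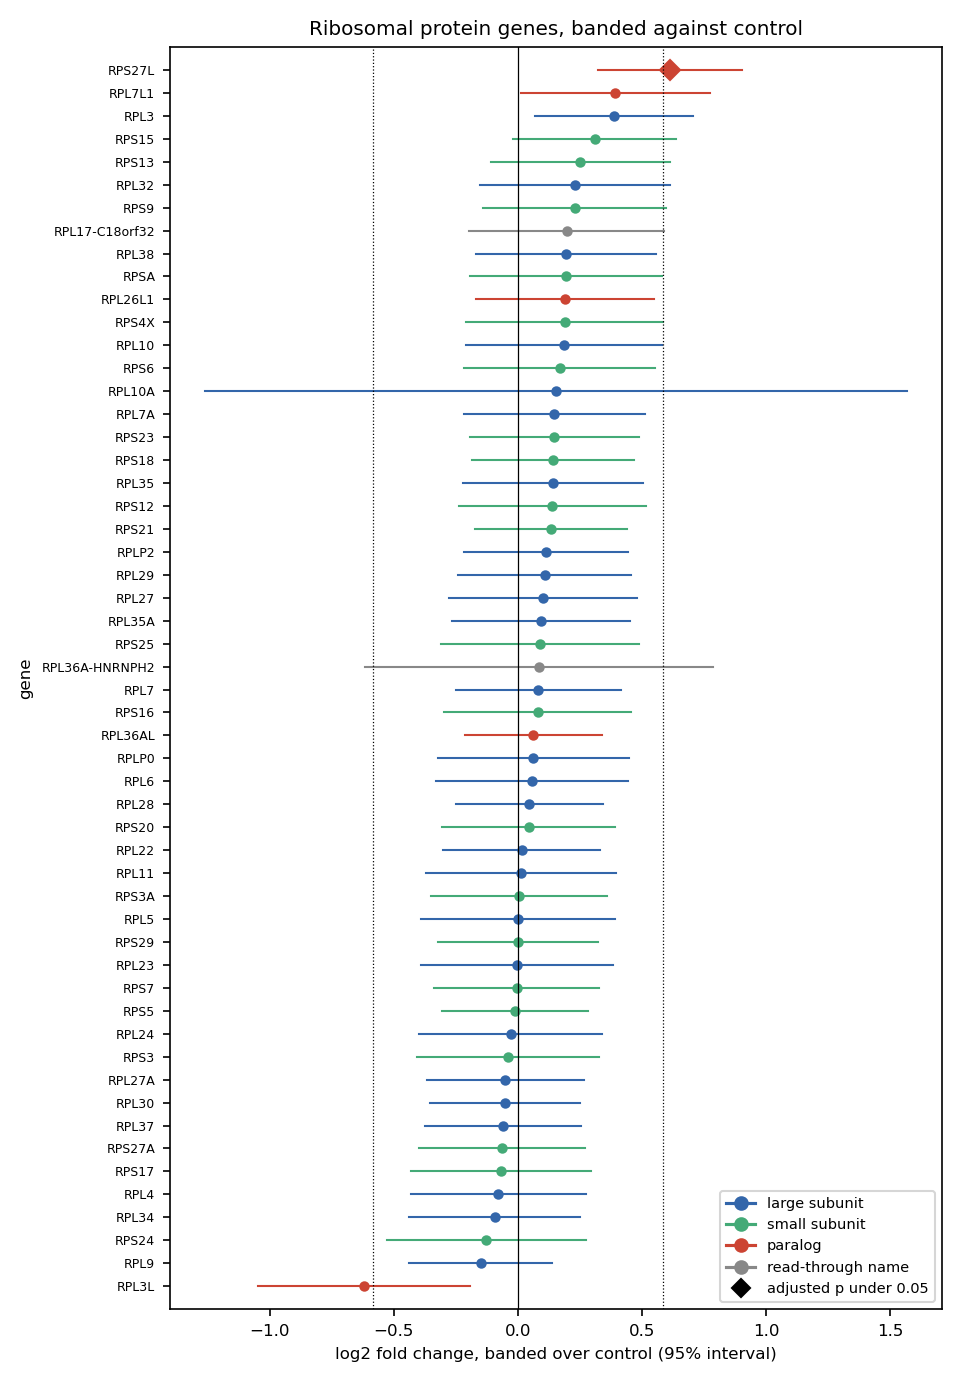
Log2 fold change of 54 of the 56 ribosomal protein genes, banded over control, with its 95% interval derived from edgeR's test. Dotted lines mark a 1.5-fold change and the diamond the 1 gene with an adjusted p under 0.05. RPS27L at 0.61 and RPL3L at -0.62 stand at the ends, followed by RPL3 and RPL7L1 at 0.39, and every other gene shown lies between -0.15 and 0.31.

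Large subunit genes had a median log2 fold change of 0.06 over 26 genes, of which 0 passed the adjusted test by edgeR, DESeq2 or limma-voom and 1, RPL3, passed unadjusted by edgeR. RPL5 and RPL11, which form the 5S particle that can bind MDM2, had nearly level group means. Control 4 raised the control mean of both. RPL5 stood at 956 CPM in it against 622 to 641 CPM in the other controls, and RPL11 at 1361 against 909 to 977 CPM. RPL5 measured 710 ± 164 CPM in controls and 710 ± 93.4 CPM in the banded group (SD, n = 4 each), and RPL11 measured 1049 ± 210 and 1057 ± 150 CPM. RPLP0, the base of the stalk, measured 1061 ± 168 and 1106 ± 200 CPM, with a 95% interval of its log2 fold change from -0.32 to 0.45. The lowest values of the large subunit were those of RPL9 (-0.15), RPL34 (-0.09) and RPL4 (-0.08), with adjusted p of 0.531, 0.768 and 0.816 by edgeR. The RPL9 model is a single exon block and lies at no RefSeq gene of that name. RPL10A had only 0.644 CPM in controls on its model, 48.8% of whose exon bases another model on the same strand shares, so its interval of -1.26 to 1.57 carries little information.

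Small subunit genes had a median of 0.09 over 23 genes, of which 0 passed edgeR's test with or without adjustment, and DESeq2 and limma-voom called 0 after adjustment and 1 each before it. RPS6, the substrate of the S6 kinases, measured 1206 ± 260 CPM in controls and 1355 ± 167 in the banded group (SD, n = 4 each; log2 fold change 0.17, 95% interval -0.22 to 0.55). RPS27A, made as a fusion with ubiquitin, measured 479 ± 74.7 and 458 ± 50.5 CPM. The highest values of the small subunit were those of RPS15, a protein of the subunit head, and RPS13. RPS15 measured 293, 331, 335 and 408 CPM in controls and 408, 361, 473 and 452 CPM in banded animals, a log2 fold change of 0.31 (adjusted p = 0.237, edgeR). RPS13 had a log2 fold change of 0.25 (adjusted p = 0.388), and RPS24, the lowest of the subunit, one of -0.13 (adjusted p = 0.719).

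RPL3, which reaches from the ribosome's surface towards the peptidyl transferase centre, was the large subunit gene with the highest log2 fold change. Its model (ENSSSCG00000040494, plus strand of chromosome 5, 8922665 to 8929767, Sscrofa11.1) counted 291, 310, 278 and 329 CPM in controls and 350, 414, 474 and 341 CPM in banded animals. The groups did not overlap, yet the log2 fold change of 0.39 ± 0.15 (SE) had an adjusted p of 0.136 (edgeR). Groups did not overlap for 2 members, RPL3 and RPS27L, both higher in banded animals. The same held for 15.9% of all tested genes, 7.66% higher and 8.2% lower.

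RPL3L replaces RPL3 in a share of the ribosomes of striated muscle. Its model (ENSSSCG00000032657, plus strand of chromosome 3, 40005075 to 40016702) counted 159, 184, 189 and 219 CPM in controls and 160, 80.9, 132 and 115 CPM in banded animals. The start of the model overlaps NDUFB10 on the opposite strand, and the counting used strand. Banded animal 1 lay within the range of the controls and the other 3 banded animals below it. The log2 fold change was -0.62 ± 0.20 (SE), with an adjusted p of 0.0817 by edgeR, 0.0354 by DESeq2, 0.0275 by edgeR scaled to library size alone and 0.0430 without banded animal 1. Across all alternatives the adjusted p ranged from 0.0275 to 0.176 and the log2 fold change stayed negative.

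Within a library, the ratio of the 2 genes does not depend on scaling. RPL3L per kilobase was 25.1, 26.8, 29.5 and 29.1% of RPL3L plus RPL3 in controls and 22.0, 10.7, 14.6 and 17.2% in banded animals, or 27.6% ± 2.05 and 16.1% ± 4.70 (SD, n = 4 each). All 4 banded animals were below all 4 controls. The log2 ratio of RPL3L to RPL3 was -1.39 ± 0.15 in controls and -2.42 ± 0.51 in banded animals, a difference of -1.03 (exact two-sided permutation test over the 70 assignments, p = 0.0286, adjusted over 2 pairs 0.0286, the smallest p that 4 against 4 allows). Of the 8 cardiomyocyte markers given above, 4 had a positive and 4 a negative log2 fold change, and the part of cell composition in the ratio was not tested.

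RPL7L1, a nucleolar relative of RPL7 that takes part in ribosome assembly, was compared with RPL7 in the same way. It counted 40.0, 35.8, 36.1 and 50.9 CPM in controls and 46.9, 42.9, 69.6 and 54.4 CPM in banded animals, so that the groups overlapped (log2 fold change 0.39, adjusted p = 0.196, edgeR). RPL7 measured 528 ± 84.9 and 558 ± 52.3 CPM (SD, n = 4 each). The log2 ratio of RPL7L1 to RPL7, per kilobase, was -4.22 ± 0.07 in controls and -3.93 ± 0.18 in banded animals, with no overlap and a difference of 0.29 (exact permutation test, p = 0.0286, adjusted over 2 pairs 0.0286). Of the RPL7L1 exon bases, 2.55% lie in another model on the same strand.

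For the other paralogs with a measured parent, the parent's model falls outside the naming rule, and these pairs were added after the values had been seen, with no test. The log2 ratio of RPL26L1 to RPL26 differed by 0.31, RPL26L1 measuring 11.4 ± 2.07 and 13.0 ± 0.93 CPM (SD, n = 4 each), and that of RPL36AL to RPL36A by -0.02 between group means. RPL22L1, outside the rule itself, gave a log2 ratio to RPL22 of -3.01 ± 0.19 in controls and -2.68 ± 0.53 in the banded group (SD, n = 4 each).

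RPS27L, a paralog of RPS27 known as a p53 target gene, was the member that rose. Its model (ENSSSCG00000023158, plus strand of chromosome 1, 108881552 to 108890283) counted 32.7, 30.0, 34.4 and 37.3 CPM in controls and 50.7, 42.9, 60.3 and 51.9 CPM in banded animals. Every banded animal was above every control. The means were 33.6 ± 3.03 and 51.4 ± 7.12 CPM (SD, n = 4 each), a log2 fold change of 0.61 ± 0.13 (SE) with an adjusted p of 0.0205 (edgeR). Without control 1, 2 or 3 the adjusted p was 0.0697, 0.0775 or 0.0643, and over all alternatives the log2 fold change stayed between 0.51 and 0.69. Per kilobase RPS27L was among the lower members, at 6.80 CPM in controls. The macrophage marker sums given above were 438 to 696 CPM in controls and 684 to 1305 CPM in banded animals, and their part in this result was not tested.

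**Figure D2:**
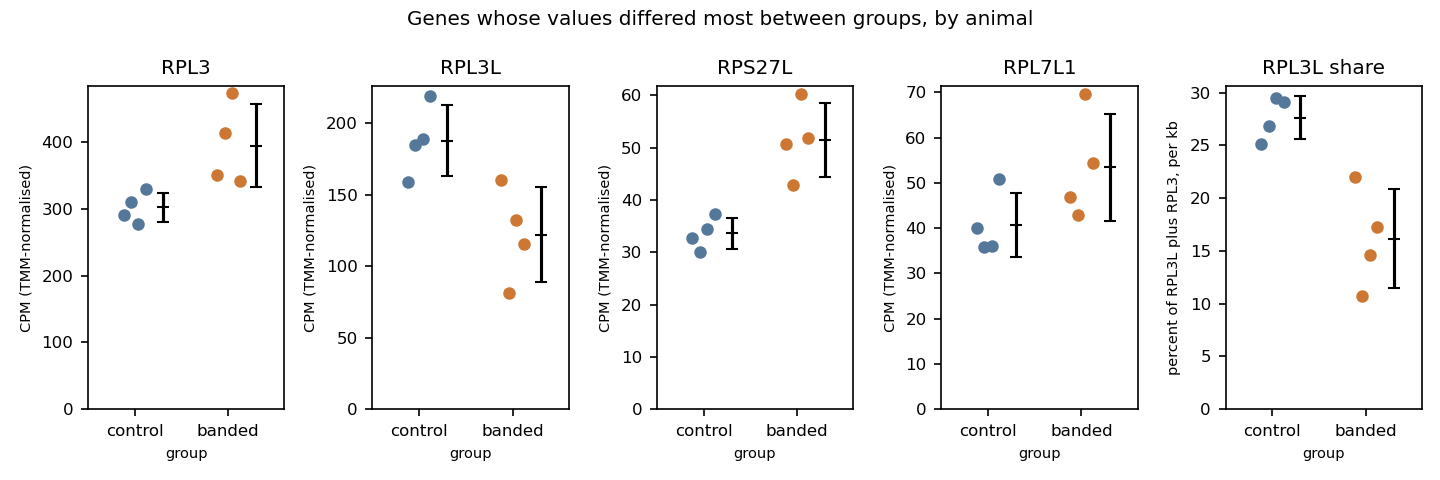
TMM-normalised CPM of RPL3, RPL3L, RPS27L and RPL7L1, and the percentage of RPL3L in RPL3L plus RPL3 per kilobase, with 1 point per animal and the mean ± SD of 4 animals beside it. RPS27L, RPL3 and the RPL3L share show no overlap between groups, with the share at 25.1 to 29.5% in controls and 10.7 to 22.0% in banded animals.

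The subunit genes varied together from animal to animal. Control 4 had the highest level of the 4 controls in 49 of 49 subunit genes, against 31.0% of all tested genes. Banded animal 3 had the highest level of the banded group in 42 of 49, against 29.0% of all tested genes, and banded animal 2 the lowest in 39 of 49. The median over the 49 genes of the log2 deviation from the control mean was -0.13, -0.07, -0.15 and 0.36 in controls 1 to 4 and -0.02, -0.12, 0.27 and 0.14 in banded animals 1 to 4. The range between controls was therefore wider than the difference between group means, 0.003 ± 0.24 in controls against 0.07 ± 0.17 in the banded group (SD, n = 4 each).

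Which animal stood out was read from the data and depended in part on scaling. With library size alone, control 4 was highest in 37, banded animal 3 highest in 45 and banded animal 2 lowest in 7 of the 49 genes. Scaled to counts outside the mitochondrial genome, the numbers were 48, 19 and 20. Control 4 had the highest mitochondrial share, 43.9%, and banded animal 3 the lowest, 30.5%, and the part of this share in the levels was not tested. Without control 4 the median log2 fold change of the 56 members was 0.21, with 48 of 49 subunit genes positive. Without banded animal 3 it was 0.01, with 24 of 49 positive.

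**Figure D3:**
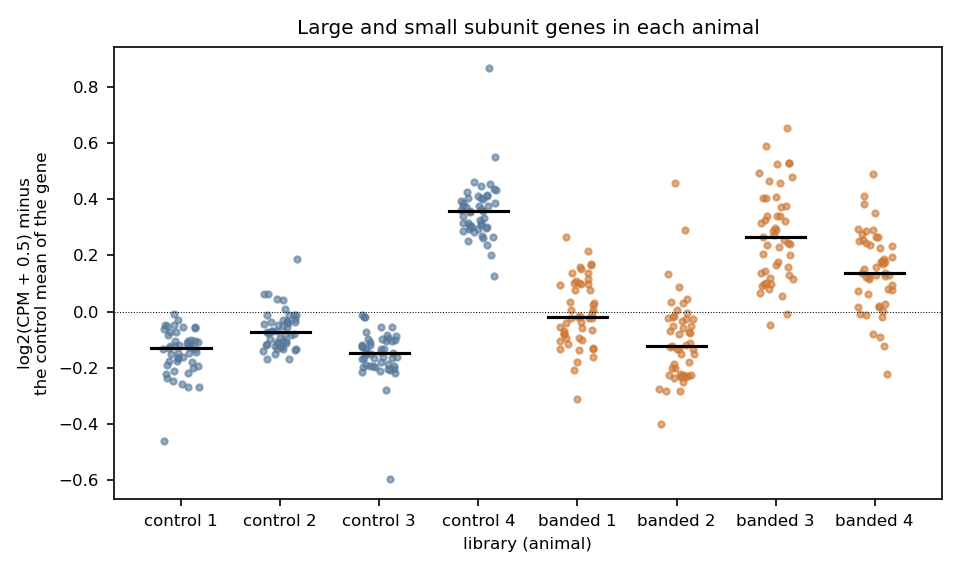
Deviation of log2(CPM + 0.5) from the gene's control mean for the 49 large and small subunit genes (points) in each animal, with the median as a bar. Control 4 (median 0.36) and banded animal 3 (median 0.27) stand above the other animals of their groups.

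The annotation limits what the members stand for. At 53 of the 56 models RefSeq places a gene of the same name. RPL9, RPL35A and RPL36A-HNRNPH2 lie at no such gene and consist of a single exon block, so reads of near-identical copies cannot be told apart there. In 22 members some exon bases lie within the span of another RefSeq gene. A search of the count table by RefSeq position and reference names, made after the values had been seen, found 15 further ribosomal protein models outside the naming rule, of which 14 were tested. Of these 0 passed edgeR's test with or without adjustment, and DESeq2 called 0 after adjustment and 1 before it. Their median log2 fold change was 0.08, with 12 positive. RPS2 measured 821 ± 153 CPM in controls and 1079 ± 207 in the banded group (SD, n = 4 each; log2 fold change 0.39, adjusted p = 0.222), and RPL26 1213 ± 295 and 1112 ± 77.9 CPM (log2 fold change -0.12, adjusted p = 0.717, both by edgeR).

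The machinery that makes, loads and regulates ribosomes was read from 9 lists holding 223 genes, of which 210 were tested. Of these, 5 rose and 2 fell (edgeR, against 3.47 and 3.5% of all tested genes), and the median log2 fold change was 0.19. RNA polymerase I and its factors, which transcribe ribosomal RNA, gave 0 calls among 19 genes by edgeR and DESeq2 and 1 lower by limma-voom, with 3 at an unadjusted p under 0.05 by edgeR and a median of 0.16. POLR2E, a subunit shared by the RNA polymerases and the most abundant of the list per kilobase, measured 79.4 ± 7.12 and 81.2 ± 15.8 CPM. RACK1, a small subunit protein with a name of its own, measured 715 ± 135 and 742 ± 157 CPM (SD, n = 4 each). FAU, which encodes a ubiquitin-like fusion of another small subunit protein, had only 1.47 ± 0.32 CPM in controls on its model and 1.65 ± 0.33 in banded animals.

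In ribosome assembly and ribosomal RNA processing, 1 of 75 tested genes rose (3 by DESeq2) and 0 fell (0 by DESeq2 also). The log2 fold change was positive in 68, with a median of 0.29. Among all 13697 tested genes 3.47% rose and 7062 were positive, with a median of 0.02. At an unadjusted p under 0.05 by edgeR, 16 of the 75 passed, and 23.8% of all tested genes did. RRP15, a nucleolar factor of large subunit assembly, rose from 26.8, 23.3, 25.7 and 28.7 CPM in controls to 44.2, 40.3, 63.1 and 34.4 CPM in banded animals (log2 fold change 0.80, adjusted p = 0.0222, edgeR). Without control 1, 2 or 3 its adjusted p was 0.0656, 0.0795 or 0.0725. Banded animal 3 was the highest of its group in 59 of the 75 genes, and without it 48 were positive with a median of 0.10. With limma-voom 62 were positive with a median of 0.16, and with library size alone 59 with a median of 0.18. NCL, or nucleolin, the most abundant of the list per kilobase, measured 252 ± 10.6 and 260 ± 48.0 CPM.

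Among translation factors, 1 of 36 initiation factors rose and 0 fell, and 0 of 14 elongation and termination factors passed by edgeR or DESeq2, with 1 at an unadjusted p under 0.05. EIF3J, a loosely bound subunit of eIF3, rose from 49.5, 51.9, 49.6 and 61.0 CPM to 74.4, 69.7, 93.5 and 87.0 CPM, a shift of 0.61 on the log2 scale (adjusted p = 0.0211, edgeR). Without control 1, 2 or 3 its adjusted p was 0.0757, 0.0737 or 0.0798. EEF2, which moves the ribosome along the messenger RNA, measured 1898 ± 193 and 1869 ± 233 CPM (SD, n = 4 each). EIF4A2, an RNA helicase of initiation, measured 508 ± 92.1 and 414 ± 29.3 CPM (adjusted p = 0.267).

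Of 17 other messenger RNAs with a TOP tract, 1 rose and 0 fell, with a median of 0.04. TPT1, the most abundant of them, measured 4421 ± 964 CPM in controls and 4544 ± 821 in the banded group (SD, n = 4 each). VIM, which encodes the intermediate filament vimentin of mesenchymal cells, rose from 469 ± 69.9 to 696 ± 64.1 CPM, a shift of 0.57 on the log2 scale (adjusted p = 0.0460, edgeR), and its adjusted p was 0.079 with library size alone. It kept its call only without control 4 or banded animal 4, and leaving out any other animal gave an adjusted p of 0.0743 to 0.145. Of 5 fibroblast markers 0 rose and 1 fell, PDGFRA (log2 fold change -0.49, adjusted p = 0.0480, edgeR). DCN (-0.18) and TCF21 (-0.23) were negative, LUM (0.58) and COL1A1 (0.25) positive. The part of cell composition in the level of VIM was not tested. Control 4 was the highest control in 15 of the 17 genes, as it was for the subunit genes.

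Of 31 genes of the mTORC1 pathway and its TOP regulators, 2 rose and 0 fell by edgeR, and 3 and 1 by DESeq2. AKT1S1, which encodes the mTORC1 inhibitor PRAS40, rose from 34.6, 37.7, 24.9 and 36.6 CPM to 52.7, 87.4, 64.3 and 98.0 CPM, a shift of 1.18 on the log2 scale (adjusted p = 0.00768, edgeR). EIF4EBP1, which encodes a repressor of cap-dependent initiation that mTORC1 phosphorylates, rose from 18.3, 19.6, 15.6 and 19.0 CPM to 33.7, 26.5, 37.0 and 30.7 CPM, a shift of 0.82 on the log2 scale (adjusted p = 0.00701). For both genes every banded animal was above every control. LAMTOR4, of the complex that holds mTORC1 at the lysosome, measured 72.4 ± 12.8 and 83.2 ± 20.4 CPM. MTOR itself measured 46.1 ± 4.07 and 42.9 ± 6.60 CPM (adjusted p = 0.697). LARP1, which holds TOP messenger RNAs, measured 62.6, 73.2, 68.9 and 58.4 CPM in controls and 55.5, 48.9, 56.3 and 46.2 CPM in banded animals. Its groups did not overlap, with an adjusted p of 0.117 (edgeR). Groups did not overlap for 3 genes higher and 2 lower of the 31, and for 15.9% of all tested genes (7.66% higher, 8.2% lower).

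In the MYC network, whose factors take part in the transcription of ribosome genes, 0 of 11 rose and 1 fell. MGA, a repressor that pairs with MAX, fell from 22.7 ± 4.81 to 14.0 ± 1.80 CPM, a shift of -0.69 on the log2 scale (adjusted p = 0.0378, edgeR), and its adjusted p was 0.0513 with library size alone. It kept its call only without control 4 or banded animal 1, and leaving out any other animal gave 0.0624 to 0.121. MLX, the most abundant of the network per kilobase, measured 45.3 ± 3.18 and 44.3 ± 9.79 CPM (SD, n = 4 each). MYC measured 16.5, 13.1, 21.8 and 23.5 CPM in controls and 12.2, 21.0, 75.3 and 18.9 CPM in banded animals (adjusted p = 0.464). The high value of MYC was in banded animal 3. That animal was the highest of its group in 42 of 49 subunit genes with TMM scaling. Scaled to counts outside the mitochondrial genome, it was so in 19. A link between MYC and these levels was not tested. Of 17 genes of ribosome quality control, 0 rose and 1 fell by edgeR and DESeq2. GCN1, which senses stalled and collided ribosomes, fell from 79.6, 83.5, 66.3 and 63.2 CPM to 49.9, 45.9, 49.2 and 38.4 CPM, a shift of -0.67 on the log2 scale (adjusted p = 0.0158, edgeR). Without control 1 or 2 its adjusted p was 0.0587 or 0.0596. SERBP1, which binds idle ribosomes, measured 218 ± 7.04 and 232 ± 29.8 CPM.

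**Figure D4:**
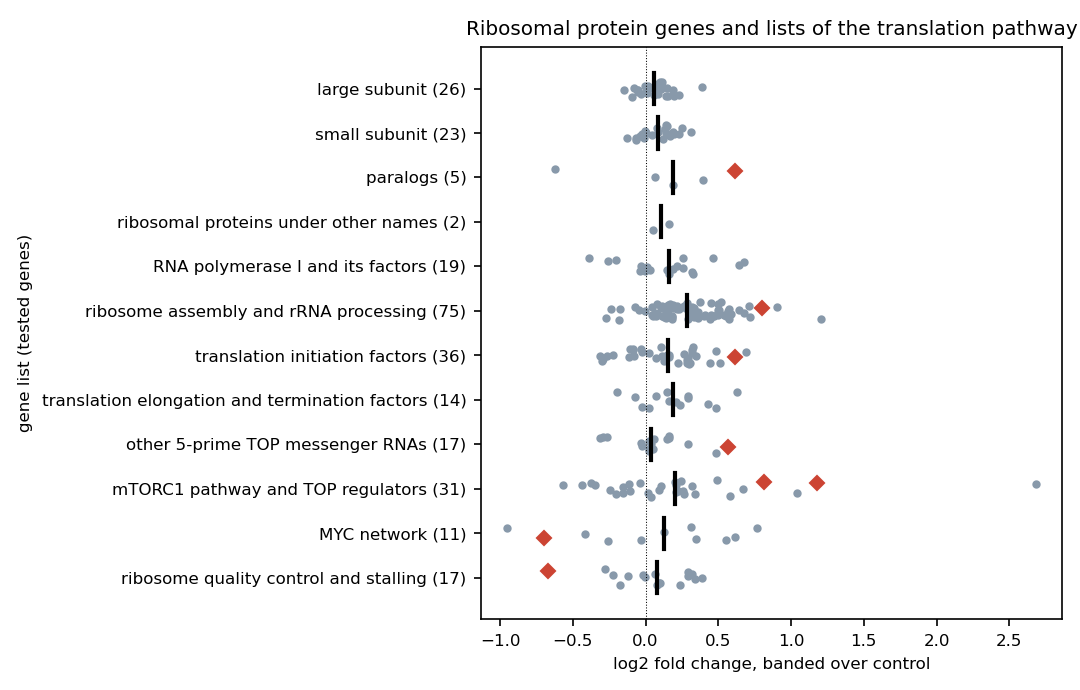
Log2 fold change, banded over control, of each tested gene in 3 classes of ribosomal protein genes and 9 lists of the translation pathway, with the median as a bar and genes with an adjusted p under 0.05 as diamonds. The 49 subunit genes lie close to 0 with no diamond, and the assembly list has the highest median, 0.29.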

How the data were processed

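The authors ran featureCounts 1.6.2 on read pairs with mapping quality 10 or more, strand setting 2 and Ensembl release 106 of Sscrofa11.1, per the file headers. The deposited counts are whole and not normalised. The submitters' processing notes also name Trimmomatic, HISAT2, Subread and DESeq2, with settings not given in the sources used here. A second deposited table holds the authors' comparison: a mean-count signal, log2 fold changes (control over banded) with errors, a test score and p-values.

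The counts were tested with edgeR 4.0.16 (quasi-likelihood, robust, TMM, minimum count 10 and total 15; R 4.3.3) over 13697 genes with Benjamini-Hochberg adjustment at 0.05, 4 libraries per group, each from another animal. DESeq2 1.42.0, limma 3.58.1 (voom), other scalings and filters and leaving out each animal were alternatives. The procedure was also run on simulated counts, drawn for each gene separately from its mean and dispersion in these data. Such counts hold no variation shared between genes, so the run does not cover it. Ratios of paralogs used TMM-scaled counts per kilobase with 0.5 counts added and exact permutation tests (scipy 1.17.1). Between genes, exon lengths are those of the count table.

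Named are members and list genes that passed the test, the 5 highest and lowest members, the most abundant members, paralogs with their parents, the most abundant gene of a list and MTOR, LARP1, MYC, RACK1 and FAU. RPL5, RPL11, RPLP0, RPS6 and RPS27A were added for their roles. Some members that the rule covers are not reported by name here. Members and lists were chosen with earlier results of these data known.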

Additional observations from a re-analysis of the deposited data

Results flagged for a closer look

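Within 124 groups of 4 animals (54 members, paralog ratios, and member and mitochondrial shares, with controls and banded apart), 13 (10.5%) had 1 animal farther from the rest than Dixon's 95% critical value allows, where chance gives about 5%. In 12 of the 13 it was control 4, at the high end of a member's level, and the members are not independent of each other. The level in control 4, with the range of the other 3 controls, was 814 CPM (526 to 549) for RPL17-C18orf32, 229 (155 to 158) for RPL27, 157 (116 to 121) for RPL30 and 477 (314 to 332) for RPL32. It was 768 CPM (511 to 539) for RPL35, 139 (97.9 to 101) for RPL38, 956 (622 to 641) for RPL5 and 1051 (707 to 734) for RPL6. Among small subunit genes it was 224 CPM (166 to 173) for RPS18, 2391 (1571 to 1592) for RPS24, 833 (571 to 600) for RPS4X and 1594 (1036 to 1105) for RPS6. The last was the log2 ratio of RPL7L1 to RPL7 in control 2, -4.32, below -4.20 to -4.18 in the other controls.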

How the results depend on the processing

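No paired analysis was possible because the labels give no replicate numbers that the groups share. All genes passing edgeR's test numbered 475 higher and 479 lower, 839 and 790 with DESeq2, and 303 higher and 508 lower with library size alone (37.4% higher, against 49.8%), which moved the median of all genes by -0.10. Leaving out 1 animal gave 201 to 499 higher and 198 to 476 lower, with the lowest counts without control 1, 2 or 3. Members called higher ranged from 0 to 1 and lower from 0 to 1 when an animal was left out, and 1 was lower (RPL3L) with DESeq2 and with library size. Genes of the lists called higher were 9 with DESeq2 and 2 to 6 without 1 animal. Those called lower were 1 with library size, 4 with limma-voom and 0 to 3 without 1 animal. The paralog differences ranged from -1.23 to -0.82 (RPL3L) and from 0.21 to 0.35 (RPL7L1) without 1 animal, where p cannot go below 0.0571. The median of the members ranged from 0.01 to 0.21 without 1 animal. With library size alone it was -0.002, and 22 of the 49 subunit genes were positive, against 32 in the main fit. Sign changes were followed singly for part of the members only. Among the genes followed, the sign turned with library size alone for RPL22 (-0.077), SERBP1 (-0.014), RPL36AL (-0.034), NCL (-0.056), POLR2E (-0.075), RACK1 (-0.039), RPL7 (-0.0061) and TPT1 (-0.049). With limma-voom it turned for NCL (-0.018), POLR2E (-0.010) and RPL23 (0.055). Of the 49 subunit genes, 48 were positive without control 4 and 24 without banded animal 3. Among the members followed singly, leaving out 1 animal moved the log2 fold change across 0 for RPL4 (-0.15 to 0.038), RPL22 (-0.051 to 0.12), RPL23 (-0.081 to 0.15), RPL34 (-0.16 to 0.041) and RPS24 (-0.19 to 0.044). It did so for list genes EEF2 (-0.079 to 0.049), MLX (-0.19 to 0.054), MYC (-0.11 to 1.04), NCL (-0.088 to 0.12), POLR2E (-0.098 to 0.12), RACK1 (-0.088 to 0.19), SERBP1 (-0.0040 to 0.13) and TPT1 (-0.054 to 0.20). None of these genes passed edgeR's test. The calls of EIF3J, MGA, GCN1, VIM, RRP15 and RPS27L were lost without certain animals, at adjusted p of up to 0.145. The cause was not tested.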
